A study of Mus musculus with 6 samples.

Results

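The genes described here encode the folding machinery of the endoplasmic reticulum (ER), the sensors of the unfolded protein response (UPR) and the machinery of ER-associated degradation (ERAD). They are 40 named genes, and all 40 were measured among the 18194 genes with a probe set of their own, 4 of them under a newer symbol (*Ero1a*, *Ero1b*, *Selenok* and *Selenos*). They were listed by name for these roles, with earlier results of these data known. The brightest probe set annotated to a single gene stood for each gene.

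RNA came from whole pancreases of C57BL/6 mouse embryos at E15.5. The 3 *Jarid2* Δpanc pancreases carried a deletion of *Jarid2*, a Polycomb-associated chromatin protein, made by Cre recombinase under the *Pdx1* promoter acting on *Jarid2* flox/flox alleles. The 3 *Jarid2* WT pancreases were labelled wild-type and served as controls. Per the study, recombination by this Cre was confined to the pancreatic epithelium and mosaic there, so that whole-organ RNA also holds RNA of cells that were not recombined. Each array held RNA from 1 embryo, hybridised to an Affymetrix mouse expression array after 2 rounds of cDNA synthesis, and signals are in intensity units with values under 16 set to 16 before log2 was taken.

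Proteins bound for secretion enter the ER as they are made, and chaperones, lectins, prolyl isomerases and disulfide isomerases fold them there. When unfolded protein builds up, the sensors Atf6, Ire1 (gene *Ern1*) and Perk (gene *Eif2ak3*) raise the expression of these folding genes and slow translation, and ERAD draws misfolded protein back to the cytosol for the proteasome. Acinar cells, which make digestive enzymes, and the hormone cells of the islets are rich in ER and are known to depend on this response.

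All 40 genes had a negative log2 fold change (*Jarid2* Δpanc over *Jarid2* WT), from -0.64 for *Derl3* to -0.01 for *Vcp*, with a median of -0.23, and 39 of the 40 did after quantile normalization, where *Vcp* was at 0.06. The median of all 18194 genes was 0. For 25 of the 40 genes (62.5%) every *Jarid2* Δpanc array lay below every *Jarid2* WT array, against 5.64% of all genes, and for none did every *Jarid2* Δpanc array lie above, against 5.71% of all genes. The other 15 overlapped between the groups. Since the list was chosen with earlier results of these data known, these shares describe it and are not a test. The differences were small: 6 genes were under -0.5 on the log2 scale, 19 lay between -0.5 and -0.2 and 15 were at -0.2 or above.

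No single gene passed the test. With limma, 0 of the 40 genes and 0% of all genes were past an adjusted p of 0.05, and the lowest adjusted p among the 40 was 0.221. At an unadjusted p under 0.05, 23 of the 40 genes (57.5%) were lower in *Jarid2* Δpanc pancreases and 0 were higher, against 4.44% lower and 4.37% higher among all genes. The standard errors of the 40 log2 fold changes ran from 0.02 to 0.29, with a median of 0.09, and for 23 genes the 95% confidence interval did not include 0. The arrays sample whole organs, so that fewer cells of a type and less RNA per cell cannot be told apart.

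**Figure D1:**
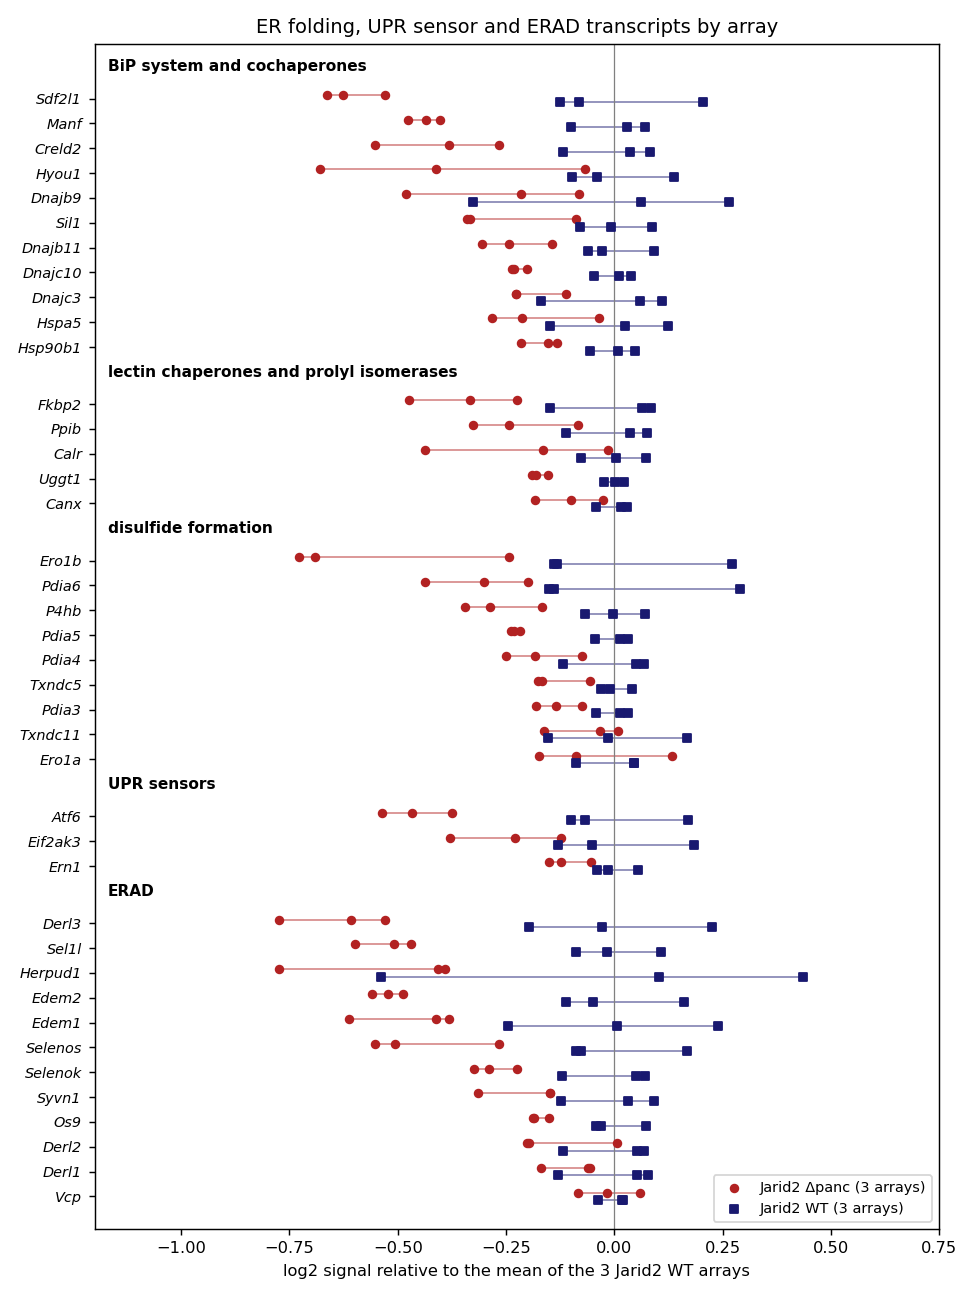
Signal of each of the 40 genes on each array, as log2 signal relative to the average of the 3 *Jarid2* WT arrays, with genes grouped by role and 1 point per array (3 *Jarid2* Δpanc, 3 *Jarid2* WT). For 25 genes the 3 *Jarid2* Δpanc points lie left of all 3 *Jarid2* WT points, and the lowest of the 6 points belongs to a *Jarid2* Δpanc array in every row.

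A *Jarid2* Δpanc array held the lowest of the 6 values for every one of the 40 genes: replicate 1 for 18 genes, replicate 2 for 9 and replicate 3 for 13. A *Jarid2* WT array held the highest value for 38 genes, and it was replicate 2 for 24 of them. *Jarid2* WT replicate 3 was the lowest of its group for 25 genes, replicate 1 for 7 and replicate 2 for 8. Averaged over the 40 genes, log2 signals relative to the *Jarid2* WT mean were -0.29, -0.24 and -0.30 in the *Jarid2* Δpanc pancreases, against 0.00, 0.08 and -0.08 in the *Jarid2* WT pancreases. The 3 *Jarid2* Δpanc arrays thus lay close together and below all 3 *Jarid2* WT arrays.

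*Jarid2* WT replicate 3 stood apart from the other *Jarid2* WT arrays in muscle and sex-linked transcripts. A list of 14 skeletal muscle genes summed to 479 to 566 in *Jarid2* Δpanc pancreases, 414 and 468 in *Jarid2* WT replicates 1 and 2, and 18501 in *Jarid2* WT replicate 3. The X-linked *Xist* read 4662, 4905 and 4197 in *Jarid2* Δpanc pancreases, against 24, 12 and 4390 in *Jarid2* WT pancreases, and the Y-linked *Eif2s3y* read 7, 5 and 13 in *Jarid2* Δpanc pancreases, against 560, 506 and 9 in *Jarid2* WT pancreases. The labels do not give the sex of the embryos, and these transcripts split the *Jarid2* WT arrays but not the *Jarid2* Δpanc arrays. Among the controls only *Jarid2* WT replicate 3 read like the *Jarid2* Δpanc arrays in the sex-linked transcripts, which thus vary partly with genotype. Their part in the ER gene values was not tested. Without *Jarid2* WT replicate 3 the median of the 40 genes was -0.27 and 33 of them lay below every remaining *Jarid2* WT array. With *Jarid2* WT replicate 3 as the only control, a comparison chosen after seeing the data, the median was -0.17. All 3 *Jarid2* Δpanc arrays lay below it for 29 of the 40. Leaving arrays out can only keep or raise such counts, and the share of all genes is not given for them here. The 5.64% of all genes counted over all 6 arrays does not apply to them. On these arrays *Jarid2* itself did not separate the groups: it read 392, 398 and 355 in *Jarid2* Δpanc pancreases, against 335, 301 and 415 in *Jarid2* WT pancreases (log2 fold change 0.13, standard error 0.14, limma adjusted p = 0.817). Whether its probe set reads the deleted exon is not given in the sources used here. Per the study, qRT-PCR of the exon between the loxP sites did find less *Jarid2* in *Jarid2* Δpanc pancreases at this stage. Ratios of 3′ to 5′ control probe sets ran from 0.742 to 0.838 in *Jarid2* Δpanc and 0.735 to 0.789 in *Jarid2* WT arrays for *Gapdh*, and from 1.58 to 1.79 in *Jarid2* Δpanc and 1.63 to 1.80 in *Jarid2* WT arrays for *Actb*.

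Signal strength differed between these genes and the rest of the array. The 40 genes had a median mean signal of 1026, against 84.8 for all genes, and all 40 were above the median gene. Among the 8836 genes at least as bright as the dimmest of the 40, 49.0% had a negative fold change, the median log2 fold change was 0.00, and 8.97% had every *Jarid2* Δpanc array below every *Jarid2* WT array. Among the 1219 genes at least as bright as the median of the 40, 65.1% were negative, the median was -0.04 and 18.95% lay below every *Jarid2* WT array, while 12 of the 20 ER genes of that brightness did so. The 8 ER genes with a mean signal of 4000 or more had log2 fold changes from -0.27 to -0.01. After quantile normalization they ran from -0.19 to 0.06, and 7 of the 8, all but *P4hb*, moved toward or past 0 by over 1.5 times. *Hspa5* then had -0.08, *Hsp90b1* -0.08, *Calr* -0.11, *Canx* 0.00, *Ppib* -0.14 and *Pdia3* -0.04.

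**Figure D2:**
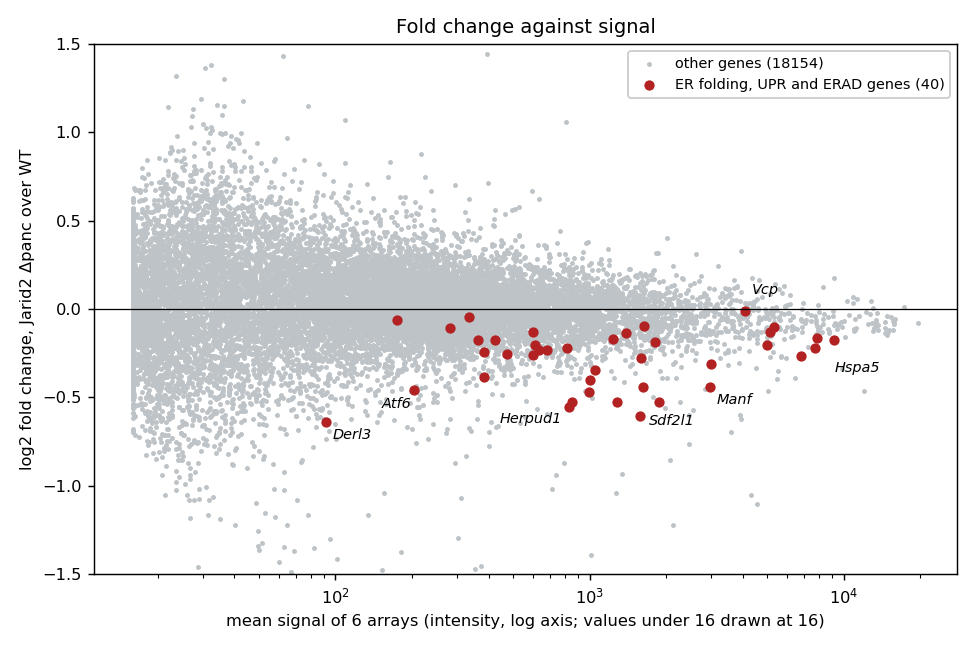
Log2 fold change (*Jarid2* Δpanc over *Jarid2* WT, y axis) against mean signal of the 6 arrays (x axis, log scale, intensity units), with the 40 ER genes coloured over 18154 other genes in grey and 29 genes outside the drawn range left out. The ER genes sit to the right of most genes and all lie below 0, between -0.64 and -0.01.

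Many ER folding genes carry the ER stress response element (ERSE) near their start, a CCAAT box bound by NF-Y and a CCACG bound by Atf6 or Xbp1, with any 9 bases between. RefSeq promoter windows of 250 bases before to 50 after the start (build GRCm38.p6) were at hand for 35 of the 40 genes (41 windows, since 4 genes had more than 1), and not for *Atf6*, *Derl1*, *Hyou1*, *Manf* and *Sil1*. Searched on both strands, ERSE was found for 10 of the 35 genes (28.6%), against 37 of 27025 genes on the same reference (0.137%), or 0.119% of all 32851 windows. Its matches are shown because they are a sequence feature that several of these genes share. The list was made of ER folding, UPR and ERAD genes, some of which are known for this element. The shares thus describe the list and are not a test. Each line has 29 bases on the strand that reads CCAAT first, 5′ to 3′, with the CCAAT and CCACG in capitals.
Hspa5, chr2:34772020-34772048, plus strand: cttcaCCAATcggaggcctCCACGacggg
Hsp90b1, chr10:86705633-86705661, minus strand: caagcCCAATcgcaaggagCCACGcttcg
Hsp90b1, chr10:86705528-86705556, plus strand: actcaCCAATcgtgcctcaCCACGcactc
Creld2, chr15:88819515-88819543, minus strand: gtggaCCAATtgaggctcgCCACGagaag
Dnajc3, chr14:118937822-118937850, plus strand: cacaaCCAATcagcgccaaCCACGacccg
Calr, chr8:84847070-84847098, plus strand: atgggCCAATgagggtcgaCCACGcgttg
Canx, chr11:50325795-50325823, minus strand: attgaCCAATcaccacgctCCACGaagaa
Pdia6, chr12:17266486-17266514, plus strand: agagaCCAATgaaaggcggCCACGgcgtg
Ero1b, chr13:12565677-12565705, minus strand: ggcggCCAATgaggcgggaCCACGaggcc
Syvn1, chr19:6046527-6046555, plus strand: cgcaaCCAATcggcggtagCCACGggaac
Derl3, chr10:75893237-75893265, minus strand: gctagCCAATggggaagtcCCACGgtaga

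The near edge of the motif lay 46 bases before the start of *Hspa5*, the classic target of the response, and 137 bases before the start of *Derl3*, which had the lowest fold change of the 40. Their 250 bases before the start are shown for context, on the strand of the gene, with the ERSE in capitals. In *Derl3* the element lies in the opposite orientation, so the capitals read its reverse complement.
Hspa5, chr2:34771840-34772089, plus strand: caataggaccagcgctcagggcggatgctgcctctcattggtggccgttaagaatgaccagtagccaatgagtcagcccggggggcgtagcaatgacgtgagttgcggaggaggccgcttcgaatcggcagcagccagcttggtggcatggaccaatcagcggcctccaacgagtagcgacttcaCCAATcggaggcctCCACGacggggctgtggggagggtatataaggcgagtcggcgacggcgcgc
Derl3, chr10:75893148-75893397, plus strand: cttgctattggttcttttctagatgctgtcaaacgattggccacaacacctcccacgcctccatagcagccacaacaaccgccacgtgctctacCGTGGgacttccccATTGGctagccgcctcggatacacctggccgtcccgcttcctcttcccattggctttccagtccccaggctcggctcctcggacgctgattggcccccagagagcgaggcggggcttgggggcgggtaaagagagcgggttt

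Other known elements were rarer. ERSE-II (ATTGG and CCACG with 1 base between) was found for 2 of the 35 genes, *Dnajb11* and *Herpud1* (5.71%, against 0.0444% of all genes on the reference). The UPR element TGACGTGG was found for 3, *Txndc5*, *Txndc11* and *Vcp* (8.57%, against 0.714%). In all, 15 of the 35 genes (42.9%) had a window with at least 1 of these motifs, against 0.884% of all genes, and a gene could be counted for more than 1 motif. These shares too describe the list and are not a test.

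Fold changes of genes with and without the motif had similar medians, and the difference was not tested. The 10 genes with ERSE had a median log2 fold change of -0.21 (range -0.64 to -0.10) and 6 of them did not overlap between groups. The 25 without it had a median of -0.23, and 16 of them did not overlap. With any of the 3 motifs the median was -0.20 over 15 genes, and with none it was -0.24 over 20. Outside the 40 genes, 27 others had an ERSE match, of which 10 were measured, and their log2 fold changes ran from -0.25 to 0.27 with a median of 0.04. Several of the 10 could show little change. *Acnat2* and *Ptgdr2* were at 16 or under on every array. *Tdrd9*, *Zfp57* and *4930402F11Rik* had mean signals of 13.7, 17.5 and 19.5, near the floor. The brightest of the 10, *Spats2l*, had a mean of 365, against a median of 1026 for the 40 genes. A match describes letters in a window and does not show that a factor binds there.

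The BiP system comprises the ER Hsp70 and Hsp90 proteins with their cochaperones. All 11 genes were negative, with a median of -0.25, 7 did not overlap between groups and 7 were lower at an unadjusted p under 0.05. BiP itself (*Hspa5*), the ER Hsp70 that holds unfolded chains and restrains the UPR sensors, read 7977, 9471 and 8373 in *Jarid2* Δpanc pancreases, against 9868, 10586 and 8760 in *Jarid2* WT pancreases. *Jarid2* Δpanc replicate 2 was above *Jarid2* WT replicate 3, so the groups overlapped (log2 fold change -0.18, standard error 0.10, limma adjusted p = 0.737). Grp94 (*Hsp90b1*), the ER Hsp90, read 7134, 7445 and 7557 in *Jarid2* Δpanc pancreases, against 8332, 7959 and 8551 in *Jarid2* WT pancreases. Its groups were apart, by a small -0.17 (standard error 0.04, adjusted p = 0.365), which was -0.08 after quantile normalization.

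The cochaperone partner *Sdf2l1*, which works with J proteins of the BiP cycle, had the lowest fold change of this group. It read 1316, 1232 and 1201 in *Jarid2* Δpanc pancreases, against 1797, 2192 and 1744 in *Jarid2* WT pancreases. The means were 1250 ± 59.5 in *Jarid2* Δpanc and 1911 ± 245 in *Jarid2* WT (SD, n = 3 each), a log2 fold change of -0.61 (95% interval -0.88 to -0.33, adjusted p = 0.270). The highest *Jarid2* Δpanc value was well under the lowest *Jarid2* WT value. *Manf*, a secreted ER stress protein that binds BiP, read 2598, 2541 and 2469 in *Jarid2* Δpanc pancreases, against 3608, 3506 and 3207 in *Jarid2* WT pancreases. Both groups were tight and apart, at -0.44 (standard error 0.05, adjusted p = 0.221). *Creld2*, another secreted ER stress protein, read 948, 874 and 777 in *Jarid2* Δpanc pancreases, against 1169, 1207 and 1049 in *Jarid2* WT pancreases, and its groups were also apart, at -0.40 (standard error 0.10, adjusted p = 0.382).

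The J proteins, which set the ATPase cycle of BiP, had fold changes nearer 0 than *Sdf2l1* and *Manf*. *Dnajc10*, a J protein with disulfide reductase activity, read 762, 744 and 746 in *Jarid2* Δpanc pancreases, against 899, 848 and 882 in *Jarid2* WT pancreases (log2 fold change -0.22, standard error 0.03, adjusted p = 0.221). *Dnajb11*, a J protein for folding clients, read 618, 552 and 577 in *Jarid2* Δpanc pancreases, against 669, 727 and 654 in *Jarid2* WT pancreases (-0.23, standard error 0.06, adjusted p = 0.416). Both had groups that did not overlap. *Dnajb9*, a J protein that Ire1 signalling induces and that brings BiP to Ire1, read 554, 608 and 461 in *Jarid2* Δpanc pancreases, against 773, 671 and 513 in *Jarid2* WT pancreases. Its groups overlapped, since *Jarid2* WT replicate 3 was under *Jarid2* Δpanc replicates 1 and 2 (-0.26, standard error 0.20, adjusted p = 0.815). *Dnajc3* had -0.19 (standard error 0.09) and also overlapped. Of the nucleotide exchange factors that reset BiP, *Sil1* read 409, 485 and 407 in *Jarid2* Δpanc pancreases, against 513, 547 and 488 in *Jarid2* WT pancreases, with groups that were just apart (-0.25, standard error 0.09, adjusted p = 0.537). *Hyou1* had -0.39 with a larger standard error of 0.18, and its groups overlapped.

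Lectin chaperones hold glycoproteins through their sugars while they fold, and prolyl isomerases turn peptide bonds at proline. All 5 of these genes were negative (median -0.21) and 2 did not overlap. *Uggt1*, which re-tags misfolded glycoproteins with glucose for another round, read 397, 395 and 405 in *Jarid2* Δpanc pancreases, against 451, 443 and 457 in *Jarid2* WT pancreases. Replicates differed little within either group, and the shift of -0.17 had a standard error of 0.02 (adjusted p = 0.221). The prolyl isomerase *Fkbp2* read 928, 1000 and 842 in *Jarid2* Δpanc pancreases, against 1223, 1240 and 1054 in *Jarid2* WT pancreases, with groups apart (-0.34, standard error 0.10, adjusted p = 0.426). Cyclophilin B (*Ppib*) read 6572, 7781 and 6967 in *Jarid2* Δpanc pancreases, against 8457, 8685 and 7632 in *Jarid2* WT pancreases. There *Jarid2* Δpanc replicate 2 passed *Jarid2* WT replicate 3 (-0.22, standard error 0.09, adjusted p = 0.587). Calnexin (*Canx*), the membrane-bound lectin chaperone, read 4840, 5390 and 5126 in *Jarid2* Δpanc pancreases, against 5601, 5331 and 5549 in *Jarid2* WT pancreases and overlapped as well (-0.10, standard error 0.05, adjusted p = 0.669). Its soluble relative calreticulin (*Calr*) had -0.21 (standard error 0.12) and overlapped.

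Disulfide formation rests on protein disulfide isomerases and on the Ero1 oxidases that recharge them. All 9 genes were negative (median -0.17), 6 did not overlap and 5 were lower at an unadjusted p under 0.05. *Ero1b*, the oxidase known for its high level in the pancreas, read 604, 823 and 588 in *Jarid2* Δpanc pancreases, against 889, 1177 and 885 in *Jarid2* WT pancreases. Replicate 2 was the highest of both groups and every *Jarid2* Δpanc value was below every *Jarid2* WT value, at -0.55 (95% interval -1.06 to -0.05, adjusted p = 0.531). The widely expressed oxidase *Ero1a* had -0.04 (95% interval -0.29 to 0.21), with overlapping groups. The difference between the oxidases was not tested.

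Among the isomerases the shifts were small and the spread was often smaller. *Pdia5* read 628, 619 and 622 in *Jarid2* Δpanc pancreases, against 708, 747 and 737 in *Jarid2* WT pancreases (log2 fold change -0.23, standard error 0.02, adjusted p = 0.221). *P4hb*, which encodes Pdi itself, read 5822, 6588 and 6059 in *Jarid2* Δpanc pancreases, against 7384, 7761 and 7058 in *Jarid2* WT pancreases (-0.27, standard error 0.06, adjusted p = 0.369). Both had groups apart. *Pdia6*, whose product also attenuates Ire1 and Perk signalling, read 2874, 2438 and 2681 in *Jarid2* Δpanc pancreases, against 2974, 4036 and 3000 in *Jarid2* WT pancreases (-0.31, standard error 0.15, adjusted p = 0.673). Its groups were apart, and *Jarid2* WT replicate 2 was far above the other arrays. *Pdia3*, the isomerase that works with the lectin chaperones, read 4717, 4872 and 5078 in *Jarid2* Δpanc pancreases, against 5461, 5390 and 5190 in *Jarid2* WT pancreases (-0.13, standard error 0.04, adjusted p = 0.437). *Txndc5* read 1280, 1391 and 1290 in *Jarid2* Δpanc pancreases, against 1438, 1488 and 1417 in *Jarid2* WT pancreases (-0.13, standard error 0.04, adjusted p = 0.489). These last genes were also apart, by a narrow margin. *Pdia4* (-0.17, standard error 0.07) and *Txndc11* (-0.06, standard error 0.10) overlapped.

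The 3 sensors were all negative. *Atf6*, a membrane-bound transcription factor that is cut in the Golgi under stress, read 181, 170 and 162 in *Jarid2* Δpanc pancreases, against 224, 264 and 219 in *Jarid2* WT pancreases. Means were 171 ± 9.54 in *Jarid2* Δpanc and 236 ± 24.7 in *Jarid2* WT (SD, n = 3 each), with groups well apart, at -0.46 (95% interval -0.70 to -0.22, adjusted p = 0.311). The dimmer probe sets of *Atf6* had -0.19 and -0.40 (standard errors 0.17 and 0.45), and both overlapped between groups. *Ern1*, whose product Ire1 splices *Xbp1* mRNA, read 281, 263 and 268 in *Jarid2* Δpanc pancreases, against 303, 289 and 284 in *Jarid2* WT pancreases. The groups were only just apart, at -0.11 (standard error 0.04, adjusted p = 0.537). *Eif2ak3*, whose product Perk slows translation, read 319, 381 and 354 in *Jarid2* Δpanc pancreases, against 400, 471 and 379 in *Jarid2* WT pancreases (-0.24, standard error 0.11, adjusted p = 0.669), and a single pair of arrays overlapped.

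ERAD had the lowest group median, -0.36 over 12 genes, all negative, of which 8 did not overlap and 7 were lower at an unadjusted p under 0.05. *Derl3*, a channel component with high levels in secretory cells, had the lowest log2 fold change of the 40. It read 65, 77 and 73 in *Jarid2* Δpanc pancreases, against 109, 130 and 97 in *Jarid2* WT pancreases, with groups clearly apart. Its fold change was -0.64 (95% interval -0.99 to -0.29, adjusted p = 0.331), or -35.7% on the linear scale. Its relatives *Derl1* and *Derl2* had -0.10 and -0.13 (standard errors 0.07 and 0.09), and both overlapped.

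*Sel1l* and *Syvn1* encode the scaffold and the ubiquitin ligase (Hrd1) of the main ERAD complex. *Sel1l* read 1453, 1589 and 1547 in *Jarid2* Δpanc pancreases, against 2068, 2369 and 2173 in *Jarid2* WT pancreases. Its lowest *Jarid2* WT value stood far above its highest *Jarid2* Δpanc value, and the means were 1530 ± 69.6 in *Jarid2* Δpanc and 2203 ± 153 in *Jarid2* WT (SD, n = 3 each). The log2 fold change was -0.53 (95% interval -0.70 to -0.35, adjusted p = 0.221). *Syvn1* read 586, 586 and 522 in *Jarid2* Δpanc pancreases, against 692, 664 and 597 in *Jarid2* WT pancreases, and was apart by a narrow margin (-0.20, standard error 0.08, adjusted p = 0.580).

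Edem proteins trim mannose from glycoproteins that fail to fold, and Os9 reads that mark. *Edem2* read 1025, 1077 and 1052 in *Jarid2* Δpanc pancreases, against 1461, 1689 and 1398 in *Jarid2* WT pancreases, so that the groups were far apart (-0.52, standard error 0.08, adjusted p = 0.254). *Edem1* read 863, 881 and 751 in *Jarid2* Δpanc pancreases, against 1355, 1153 and 968 in *Jarid2* WT pancreases, apart but with a wide *Jarid2* WT spread (-0.47, standard error 0.15, adjusted p = 0.484). *Os9* read 337, 338 and 346 in *Jarid2* Δpanc pancreases, against 404, 373 and 376 in *Jarid2* WT pancreases (-0.17, standard error 0.04, adjusted p = 0.343), also apart.

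The selenoproteins *Selenok* and *Selenos* encode membrane proteins that recruit the ATPase Vcp, which pulls substrates out of the ER. *Selenos* read 1270, 1550 and 1313 in *Jarid2* Δpanc pancreases, against 1766, 2093 and 1752 in *Jarid2* WT pancreases (-0.44, standard error 0.11, adjusted p = 0.411). *Selenok* read 1399, 1432 and 1497 in *Jarid2* Δpanc pancreases, against 1812, 1610 and 1837 in *Jarid2* WT pancreases (-0.28, standard error 0.06, adjusted p = 0.361). Neither overlapped between groups. *Herpud1*, a membrane adaptor strongly induced by ER stress, read 741, 749 and 574 in *Jarid2* Δpanc pancreases, against 1054, 1329 and 676 in *Jarid2* WT pancreases. Replicate 3 was the lowest of both groups, the groups overlapped, and the standard error of 0.29 was the widest of the 40 (-0.52, adjusted p = 0.725). *Vcp*, which also serves many pathways outside the ER, had -0.01 (95% interval -0.13 to 0.10) and overlapped.

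Additional probe sets gave another reading for 30 of the 40 genes, 92 probe sets in all. Of the 52 that did not stand for a gene, 35 had a negative and 16 a positive log2 fold change and 1 was at 0, with a median of -0.15, and 15 lay below every *Jarid2* WT array and 0 above. Among the 36 of these with a mean signal of 100 or more, 27 were negative. The share of all further probe sets that lay below every *Jarid2* WT array is not given here. The 52 also read the same arrays and genes as the brightest probe sets, so they are not independent of them. Every probe set was negative for 15 of the 30 genes, 1 gene had a probe set at 0 and 14 had at least 1 positive probe set. *Sel1l* had 5 probe sets from -0.53 to -0.14, and the 3 of *Selenos* were all below every *Jarid2* WT array. The second probe set of *Hspa5* had the same log2 fold change as the first, -0.18, and did not overlap between groups (5209, 5263 and 5073 in *Jarid2* Δpanc, against 6155, 6000 and 5455 in *Jarid2* WT), while its dimmest had -0.05 with overlap. Those of *Derl1* likewise had groups apart, at -0.21, -0.20 and -0.18, where its brightest had not. Among the 14 genes with a positive probe set, it reached 0.28 for *Vcp*, 0.27 for *Pdia6*, 0.23 for *Ero1a*, 0.22 for *Hyou1*, 0.19 for *Uggt1*, 0.15 for *Dnajc3*, 0.11 for *Ern1* and 0.10 for *Txndc11*. It was under 0.1 for *Ero1b*, *Canx*, *Os9*, *Derl2*, *Pdia4* and *Txndc5*.

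Transcription factors and outputs of the UPR outside the 40 genes were set beside them. Of 22 such genes measured, 11 were negative, the median was -0.04, 3 did not overlap, all of them lower, and none was past the adjusted threshold. Among all genes 5.64% lay below every *Jarid2* WT array, and 8.97% among those at least as bright as the dimmest of the 40. *Xbp1*, whose spliced form drives many folding genes, read 6202, 6234 and 6011 in *Jarid2* Δpanc pancreases, against 6959, 6930 and 6024 in *Jarid2* WT pancreases, with overlap through *Jarid2* WT replicate 3 (log2 fold change -0.11, standard error 0.07, adjusted p = 0.767). These signals do not separate spliced from unspliced *Xbp1*. *Atf4*, the factor downstream of Perk, read 1174, 1096 and 1094 in *Jarid2* Δpanc pancreases, against 1310, 1276 and 1133 in *Jarid2* WT pancreases (-0.14, standard error 0.07, adjusted p = 0.675). *Ddit3*, which encodes the stress-induced factor Chop, read 120, 78 and 103 in *Jarid2* Δpanc pancreases, against 78, 90 and 85 in *Jarid2* WT pancreases (0.23, standard error 0.18, adjusted p = 0.815). Both overlapped between groups. The list ran from *Creb3l1*, an ER-bound factor of secretory cells, at -0.55 (standard error 0.15), to its relative *Creb3l4* at 0.30 (standard error 0.19).

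Further ER folding genes had 24 negative values of 37 measured, with a median of -0.11, and 13 of them lay below and 1 above every *Jarid2* WT array. *Pdia2*, the pancreas-enriched isomerase, had the lowest value. It read 673, 469 and 492 in *Jarid2* Δpanc pancreases, against 1300, 2115 and 1022 in *Jarid2* WT pancreases, with groups apart (-1.39, standard error 0.33, adjusted p = 0.369). *Cnpy2* had -0.14 (standard error 0.03), with groups apart, *Fkbp14* had 0.21 (standard error 0.07), above every *Jarid2* WT array, and *Dnajb12* had the highest value, 0.31 (standard error 0.21). Of 25 further ERAD genes, 19 were negative, the median was -0.06, and 5 lay below and 1 above every *Jarid2* WT array. They ran from the signal peptide peptidase *H13* at -0.41 (standard error 0.07) to *Tmub1* at 0.14 (standard error 0.17), and the cochaperone ligase *Stub1* had -0.01 (standard error 0.05).

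Chaperones of the cytosol and mitochondria were near the level of all genes. Of 28 measured, 17 were negative, the median was -0.03, the values ran from -0.24 for *Hspa1b* to 0.16 for *Hsph1* (standard errors 0.31 and 0.16), and 1 lay below every *Jarid2* WT array. The constitutive Hsp70 *Hspa8* read 11535, 12479 and 10493 in *Jarid2* Δpanc pancreases, against 12067, 11128 and 10035 in *Jarid2* WT pancreases, with overlap (0.05, standard error 0.10). Whether the 40 ER genes differ from this list was not tested.

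**Figure D3:**
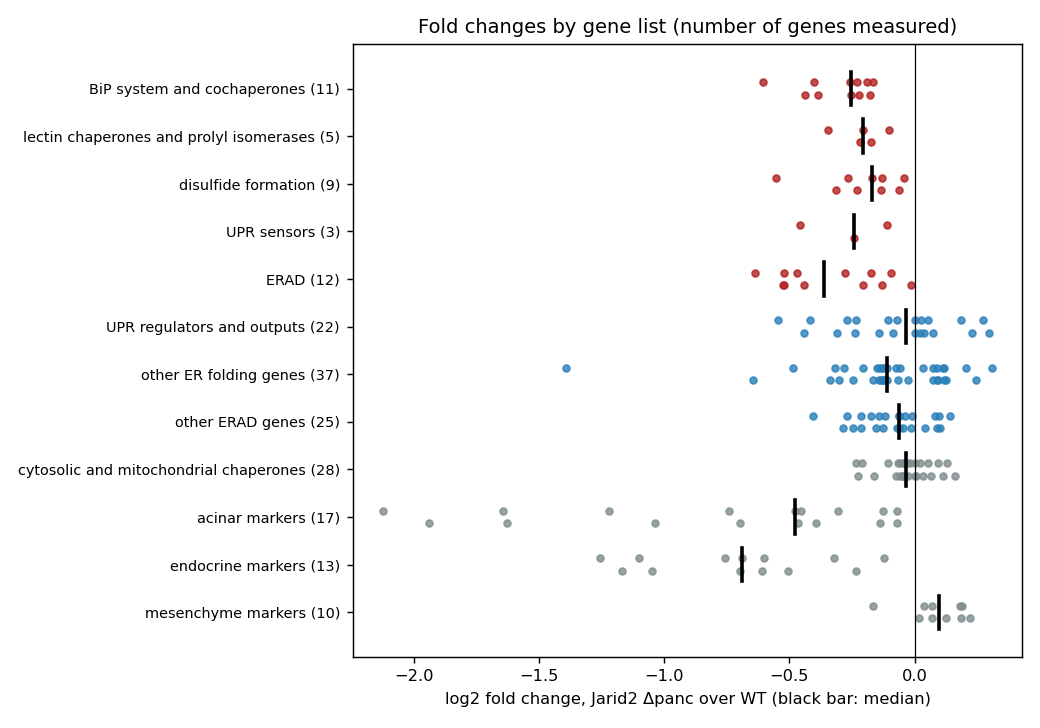
Log2 fold change (*Jarid2* Δpanc over *Jarid2* WT, x axis) of each gene in each list (rows, number of genes measured in brackets), with 1 point per gene and a black bar at the median. The 5 role groups of the 40 ER genes have medians from -0.36 (ERAD) to -0.17 (disulfide formation), against -0.03 for chaperones of the cytosol and mitochondria.

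Markers of the secretory cells also had lower signals in *Jarid2* Δpanc pancreases. All 17 acinar genes measured of 20 listed were negative (median -0.48) and 10 lay below every *Jarid2* WT array, against 5.64% of all genes. They ranged widely, from -2.12 for *Cela2a* to -0.07 for *Ctrb1*. The brightest, *Ctrb1*, *Pnliprp1* and *Cpa1*, had -0.07, -0.14 and -0.07, with groups that overlapped. The next brightest, *Clps* and *Cela1*, had -0.47 and -0.39, with groups apart. The summed acinar signal, to which these bright genes gave much, was 60254 to 71634 in *Jarid2* Δpanc and 78931 to 92317 in *Jarid2* WT pancreases. All 13 endocrine genes measured of 14 listed were negative (median -0.69) and 10 lay below, with sums of 10626 to 12260 in *Jarid2* Δpanc and 18565 to 21663 in *Jarid2* WT pancreases. Of 6 duct and progenitor genes 2 were negative and 0 lay below (sums 1536 to 1675 in *Jarid2* Δpanc and 1432 to 1675 in *Jarid2* WT). Of 10 mesenchyme genes 1 was negative, with sums of 27338 to 32456 in *Jarid2* Δpanc and 24646 to 31753 in *Jarid2* WT. The list of B and plasma cells, which also hold much ER, summed to 109 to 126 in *Jarid2* Δpanc and 114 to 147 in *Jarid2* WT over 6 genes. Of these, 2 were negative and 3 positive, from -0.81 to 0.50 with a median of 0.06. Many of their values lay near the floor of 16, among them those of the joining chain gene *Jchain* (6 to 19 in *Jarid2* Δpanc and 16 to 21 in *Jarid2* WT). Of 5 liver genes 2 were negative (median 0.14), with sums of 8885 to 11456 in *Jarid2* Δpanc and 11213 to 14610 in *Jarid2* WT that were mostly *Ttr* (-0.34), which islet cells also express. *Alb* read 137, 47 and 790 in *Jarid2* Δpanc, against 58, 751 and 86 in *Jarid2* WT pancreases. *Afp* read 726, 507 and 1736 in *Jarid2* Δpanc, against 479, 1917 and 523 in *Jarid2* WT pancreases. Both were thus high in *Jarid2* WT replicate 2 and *Jarid2* Δpanc replicate 3. The part of these cell types in the ER gene values was not tested.

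Across the *Jarid2* WT arrays the order of the lists had points in common. In *Jarid2* WT pancreases, replicate 2 was the highest and replicate 3 the lowest in the mean of the 40 ER genes (0.00, 0.08 and -0.08) and in the acinar mean (-0.11, 0.32 and -0.21). The endocrine mean (-0.05, 0.12 and -0.07) and that of the further ERAD genes (-0.01, 0.04 and -0.02) had the same order. The UPR regulators and outputs and the further ER folding genes had other orders. In *Jarid2* Δpanc pancreases the 40 ER genes averaged -0.29, -0.24 and -0.30, where acinar genes averaged -0.72, -0.82 and -0.86 and endocrine genes -0.79, -0.68 and -0.64. There the highest array differed by list: replicate 2 for the ER genes, replicate 1 for the acinar and replicate 3 for the endocrine genes. Replicate 3 was the lowest for the ER and acinar genes. Chaperones of the cytosol and mitochondria averaged -0.01, 0.02 and -0.09 in *Jarid2* Δpanc and 0.02, -0.02 and -0.01 in *Jarid2* WT pancreases, so that the groups overlapped, with *Jarid2* Δpanc replicate 3 the lowest.

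**Figure D4:**
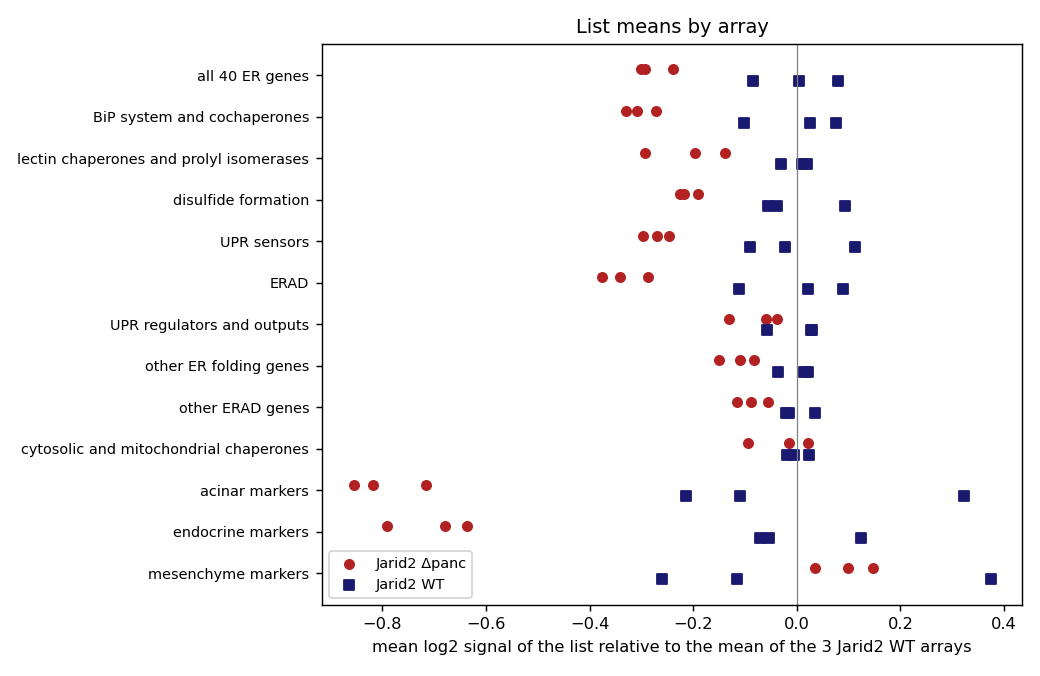
Mean log2 signal of each gene list on each array, relative to the average of the 3 *Jarid2* WT arrays, with 1 point per array (3 *Jarid2* Δpanc, 3 *Jarid2* WT). The 3 *Jarid2* Δpanc points lie left of all *Jarid2* WT points for the 40 ER genes (-0.30 to -0.24 against -0.08 to 0.08) and for the acinar and endocrine markers, and overlap the *Jarid2* WT points for the chaperones of the cytosol and mitochondria, where *Jarid2* Δpanc replicate 3 (-0.09) is the lowest of the 6.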

How the data were processed

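Whole pancreases of 6 mouse embryos at E15.5 (3 *Jarid2* Δpanc, 3 *Jarid2* WT) were profiled on Affymetrix arrays starting with 50 ng RNA. The authors deposited intensities, 1 per probe set and array (45101 probe sets), which the submitters' processing notes credit to MAS5, version not given. Each array had a 2% trimmed mean of 150, and 26.5 to 29.0% of its values were under 16. The study's methods name RMA, another normalization, for its own analysis. A description label that names islets in glucose conflicted with the titles and tissue labels, which were followed. Each title names 1 embryo.

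Of the probe sets, 34958 had a single gene symbol in the platform annotation, 932 had several and 9211 had none here. Intensities were floored at 16 before log2 transformation. The probe set with the highest mean log2 signal stood for each of 18194 genes, 1573 of which were at 16 or under on every array. *Jarid2* Δpanc was compared with *Jarid2* WT with lmFit and eBayes (limma 3.58.1, R 4.3.3), with Benjamini-Hochberg adjustment over all genes. The code was tested on simulated data. The 40 genes and all lists were chosen with earlier results of these data known. Values by array are given for genes lower at an unadjusted p under 0.05, genes whose groups do not overlap, the 5 with the highest mean, the 3 sensors and *Hspa5*, *Dnajb9*, *Herpud1* and *Derl3*. From each list of further UPR, ER folding, ERAD and cytosolic or mitochondrial chaperone genes the lowest, the highest and the highest-signal gene are named, with *Xbp1*, *Atf4* and *Ddit3*. *Fkbp14*, *Jchain*, *Ttr*, *Alb*, *Afp* and the acinar genes named were added after their values were seen. With 3 arrays a group, their number limits the precision.

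Same-numbered arrays did not deviate together (correlations -0.02, -0.01 and -0.02). No pair of the 6 arrays shared over 4.22% of identical values. Protein sequences were not used here.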

Additional observations from a re-analysis of the deposited data

How the results depend on the processing

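Under 16 alternatives (each array left out, a replicate block, floors of 1 and 64, quantile normalization, dim genes left out, another probe set rule, other limma settings), 0 of the 40 genes passed an adjusted p of 0.05 in limma. At an unadjusted p under 0.05, 23 were lower in the fit reported and 11 to 26 in the alternatives. Their median log2 fold change stayed between -0.27 and -0.17, 37 to 40 were negative, 20 to 33 lay below every *Jarid2* WT array and 0 lay above. Leaving arrays out can only keep or raise the counts below and above, so a higher count there is no sign of stability. With one array left out, the median ran from -0.27 to -0.20. The genes called among all 18194 were 0, 3 with quantile normalization, and 0 to 9 with one array left out (9 without replicate 2 and 5 without replicate 3 of *Jarid2* WT, 6 without replicate 3 and 1 without replicate 2 of *Jarid2* Δpanc). With *Jarid2* WT replicates 1 and 2 both left out, chosen after seeing the data, 266 genes were called, 252 of them lower and 0 of them among the 40. The lone control was then assumed to vary like the other group. The count at an unadjusted p was 15 with a floor of 1 and 11 in that last fit. The replicate block left 0 of the 40 genes called (median -0.23, 24 lower unadjusted). After quantile normalization 9 of the 40 fold changes moved toward or past 0 by over 1.5 times, 7 of them among the 8 genes with a mean signal of 4000 or more, and with all probe sets of a gene averaged 15 did. Signs held in every alternative for 33 genes. *Vcp*, *Ero1a*, *Txndc11*, *Canx*, *Hyou1*, *Dnajb9* and *Herpud1* were positive in some, for *Hyou1* (0.05) and *Canx* (0.07) with another probe set, and for *Dnajb9* (0.07) and *Herpud1* (0.01) with *Jarid2* WT replicate 3 as the only control. Causes were not tested.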

Other observations

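Several ER genes outside the 40 had groups that did not overlap, and they were picked after their values were seen. *Fkbp11*, a prolyl isomerase of secretory cells, read 456, 391 and 402 in *Jarid2* Δpanc pancreases, against 662, 654 and 635 in *Jarid2* WT pancreases (log2 fold change -0.65, standard error 0.07, limma adjusted p = 0.219). *Serp1*, which stabilises membrane proteins at the translocon, read 3466, 3408 and 3509 in *Jarid2* Δpanc pancreases, against 4225, 4562 and 4041 in *Jarid2* WT pancreases (-0.30, standard error 0.05, adjusted p = 0.259). *Qsox1*, a sulfhydryl oxidase, read 321, 324 and 288 in *Jarid2* Δpanc pancreases, against 394, 399 and 384 in *Jarid2* WT pancreases (-0.34, standard error 0.05, adjusted p = 0.259). *Herpud2*, a relative of *Herpud1*, read 457, 450 and 411 in *Jarid2* Δpanc pancreases, against 546, 532 and 528 in *Jarid2* WT pancreases (-0.29, standard error 0.05, adjusted p = 0.260). In each, the *Jarid2* Δpanc arrays were the 3 lowest. *Rnf5*, a ubiquitin ligase of the ER membrane, had the opposite sign. It read 725, 662 and 667 in *Jarid2* Δpanc pancreases, against 630, 651 and 636 in *Jarid2* WT pancreases (0.10, standard error 0.04, adjusted p = 0.642).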
